A study of Homo sapiens with 10 samples.

Results

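Activins and inhibins are paired-chain ligands of the TGF-beta family, and 9 genes of their system were described in 2 medulloblastoma cell lines. They were the ligand subunit genes INHBA, INHBB, INHBE and INHA, the activin-binding protein genes FST and FSTL3, the type I receptor gene ACVR1B and the type II receptor genes ACVR2A and ACVR2B. They were taken by symbol, after the Ensembl identifiers of the count tables had been matched to a gene annotation, and made up 9 of the 57820 identifiers counted. INHBB, INHBE, FSTL3, ACVR1B, ACVR2A and ACVR2B passed a filter on low counts and were among the 16006 genes tested. INHBA, INHA and FST had at most 3, 8 and 8 counts in any library and were not tested.

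An activin is a dimer of inhibin beta chains, cut from a precursor by furin-like proteases. It binds ACVR2A or ACVR2B, which activates a type I receptor, chiefly ACVR1B, and the type I receptor phosphorylates SMAD2 and SMAD3, which enter the nucleus with SMAD4. Follistatin and FSTL3 bind activin and keep it from its receptors, inhibins carry the alpha chain made from INHA and compete for the type II receptors, and SMAD7 and PMEPA1 are induced by the pathway and dampen it.

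Poly(A)-selected RNA of D425 and HD-MB03, lines derived from Group 3 medulloblastoma, was sequenced in 10 libraries. The series asked what happens to TGF-beta and activin signalling when short hairpin RNA lowers CRX, a homeobox protein that switches on photoreceptor genes. D425 was represented by 2 libraries of parental cells, 1 of cells with the empty vector and 3 of cells with a hairpin against CRX (shCRX), and HD-MB03 by 1 parental, 1 empty-vector and 2 shCRX libraries. Parental and vector libraries of a line were its controls. The vector was the lentiviral, doxycycline-inducible Tet-pLKO-puro, and transduced cells were stable polyclonal populations. The labels give doxycycline at 4 µg/ml for 72 h without exempting the parental cells. The study used 2 hairpins. Neither the hairpin of a given library nor the use of separate cultures within a group is stated, so p-values measure only how far these samples spread, and that spread may be technical.

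Reads counted in genes came to 1.96 to 18.06 M per library. The library numbers in the deposit fell into a low set, all under 100, which held the D425 shCRX and the HD-MB03 control libraries, and a high set, all above 100, which held the D425 control and the HD-MB03 shCRX libraries. What the numbers mark is not stated. Within a line, arm and number set cannot be told apart, and a gene that follows the set moves in opposite directions in the arms of the lines. The HD-MB03 control libraries were the shallowest, with 2.08 and 1.96 M reads, and 30.9% and 26.4% of their reads did not align, against 4.54% to 7.99% elsewhere. Of 8 Group 3 marker genes, 7 averaged at least 1 CPM (counts scaled to the effective library total) in every group. Immune markers summed to 2.9 to 17.0 CPM, with CD3E and LYZ at 0 in all libraries, and fibroblast markers summed to 5.15 to 16.6 CPM. The Group 3 markers summed to 5590 to 6420 CPM in D425 controls, 2980 to 4680 CPM in D425 shCRX libraries and 7300 to 8980 CPM in HD-MB03, and the neural markers to 555 to 625 CPM in D425 controls and 143 to 489 CPM in D425 shCRX libraries. The part of these falls in the results below was not tested.

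The target itself checked the labels first. CRX was at 47.5 and 29.7 CPM in the D425 parental libraries, 64.9 CPM in the D425 vector library and 20.3, 20.9 and 25.3 CPM in the D425 shCRX libraries. In HD-MB03 it was at 12.5 CPM in the parental library, 12.3 CPM in the vector library and 27.7 and 23.5 CPM in the libraries labelled shCRX. CRX was thus lower under shCRX in D425 (log2 fold change -1.10 ± 0.26 SE, 3 against 3 libraries, edgeR adjusted p = 0.0436), and went against its label in HD-MB03, where it was higher without passing the test (1.04 ± 0.36, 2 against 2, edgeR adjusted p = 0.174). The D425 call was lost in 9 of 10 fits that left out 1 library (edgeR adjusted p 0.0533 to 0.171); it held without D425 parental replicate 2. Of 11 other settings, 6 kept the D425 CRX call and 5 lost it. Those that lost it included edgeR on library totals (adjusted p = 0.065), limma-voom (0.0587) and edgeR after thinning to equal depth (0.678). The D425 log2 fold change of CRX was -0.641 after thinning, -0.807 with parental controls alone and -1.55 with vector controls alone. Every direction given below for HD-MB03 refers to libraries labelled shCRX.

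INHBB, the gene of the activin beta B chain, was the member that changed most between the arms. It was at the edge of detection in D425 controls, present in all 3 D425 shCRX libraries, highest on average in HD-MB03 controls and lower in both HD-MB03 libraries labelled shCRX. Its 250 bases upstream of the transcription start are shown with those of SMAD6, an inhibitor of BMP-type SMAD signalling whose levels followed INHBB closely over the libraries. Both come from a RefSeq promoter table of build GRCh38.p14, plus strand, and are written 5′ to 3′. INHBB lies at chr2:120345886-120346135 and SMAD6 at chr15:66701986-66702235. Capitals mark the GC-rich SMAD element GGCGCC in INHBB and the SMAD palindrome GTCTAGAC in SMAD6.
INHBB: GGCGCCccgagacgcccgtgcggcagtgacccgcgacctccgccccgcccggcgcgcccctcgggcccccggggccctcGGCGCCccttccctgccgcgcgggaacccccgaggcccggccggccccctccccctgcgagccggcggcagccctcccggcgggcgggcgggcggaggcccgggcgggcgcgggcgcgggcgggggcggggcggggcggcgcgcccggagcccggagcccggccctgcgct
SMAD6: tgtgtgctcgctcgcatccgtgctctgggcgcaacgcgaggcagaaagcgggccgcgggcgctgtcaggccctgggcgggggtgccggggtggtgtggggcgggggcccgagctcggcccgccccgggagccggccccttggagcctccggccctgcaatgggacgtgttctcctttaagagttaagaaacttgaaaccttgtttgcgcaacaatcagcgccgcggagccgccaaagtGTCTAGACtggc

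The INHBB window was 89.6% G or C and held GGCGCC 2 times, beginning 250 and 171 bases before the start, and the SMAD6 window was 68% G or C and held GTCTAGAC once, beginning 12 bases before the start. GGCGCC occurred in 16.4% and GTCTAGAC in 0.182% of 35116 promoter windows of that length, searched on both strands. These shares take no account of base composition, so 2 matches of GGCGCC in a window of 89.6% G or C cannot be read as an excess. No match overlapped one of another motif in the windows shown. The homeobox core TAATCC, the letters that CRX and OTX proteins prefer, occurred in 5.62% of windows and in neither of these. Windows were found for 8 of the 9 members, 9 windows in all, and TAATCC was in that of INHBA, beginning 228 bases before the start. GGCGCC was also in the windows of ACVR1B, with 4 matches, and FSTL3, with 1. Those of UTS2R and SMAD7, whose levels also followed INHBB closely, were not examined, so SMAD6 does not stand for such genes. A match of letters is a description and not a binding site.

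In D425, INHBB was at 0.224 and 0.242 CPM in the parental libraries and 0.273 CPM in the vector library, from 4, 3 and 3 counts. In the D425 shCRX libraries it was at 5.999, 57.5 and 9.21 CPM, from 65, 278 and 36 counts. The lowest shCRX library lay above every control, and shCRX replicate 2 lay far above the other two. The fitted log2 fold change was 6.55 ± 1.02 (edgeR adjusted p = 0.00732). With so few control counts this depends on the model, and the ratio of summed counts, scaled by depth, was 88.6, with a 95% exact interval of 47.7 to 186 that covers counting error alone. INHBB was the only one of the 6 tested members called in D425, where 2.97% of all tested genes were called. The call was lost with limma-voom, with no low-count filter, with vector or parental libraries alone as controls and after thinning to equal depth (log2 fold changes of 5.53 to 6.61, adjusted p 0.0514 to 0.188), and it held in all fits that left out 1 library. Replicate 2 gave 278 of the 379 shCRX counts, and without it the log2 fold change was 4.84 (edgeR adjusted p = 0.00323), below the counting interval. RNA from bulk cells cannot tell fewer cells of a type from less RNA per cell.

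In HD-MB03, INHBB was at 40.6 CPM in the parental library and 20.9 CPM in the vector library, from 78 and 39 counts. It was at 2.00 and 6.66 CPM in the libraries labelled shCRX, from 28 and 93 counts. The arms did not overlap, and the direction by label was the reverse of that in D425. In both lines INHBB was on average higher in the arm with less CRX, but the CRX difference in HD-MB03 did not pass and number set moves with arm. Between the D425 arms neither gene overlapped, with CRX lower and INHBB higher under shCRX. Inside the D425 shCRX arm the levels did not go together. Replicates 1 and 2 there had 20.3 and 20.9 CPM of CRX but 5.999 and 57.5 CPM of INHBB. A relation of the 2 genes was not tested, nor whether labels or files of HD-MB03 were exchanged. The log2 fold change was -2.83 ± 0.95 (edgeR adjusted p = 0.166), and the summed counts, scaled by depth, were 6.90-fold higher in controls (95% exact interval 5.30 to 8.97, counting error alone). No member passed in HD-MB03 (0 of 6; 2 at an unadjusted p under 0.05), where 1.51% of all tested genes were called by edgeR. INHBB was called there without D425 shCRX replicate 2 (log2 fold change -2.82, edgeR adjusted p = 0.0231), with the HD-MB03 libraries fitted alone (-2.87, edgeR adjusted p = 0.0463) and with a replicate block (-3.09, edgeR adjusted p = 0.0204). D425 shCRX replicate 2 is not part of the HD-MB03 contrast, so leaving it out acts mainly through the spread estimated over all groups. The block goes by title numbers, which did not pair the libraries. After thinning to equal depth the INHBB log2 fold change was -5.26 (edgeR adjusted p = 0.149).

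The log2 arm effect of INHBB in D425 exceeded that in HD-MB03 by 9.37 ± 1.43 (edgeR adjusted p = 0.00619), a comparison in which 4.16% of tested genes were called. INHBB was again the only member called, 1 of 6. The call was lost without HD-MB03 shCRX replicate 1 (8.74, edgeR adjusted p = 0.0643), with the vector libraries alone as controls (8.66, adjusted p = 0.137) and with no low-count filter (9.23, adjusted p = 0.0516). By design the same contrast compares the low with the high number set: INHBB was at 5.999 to 57.5 CPM in the 5 libraries of the low set and 0.224 to 6.66 CPM in the 5 of the high set. Of all tested genes, 4.07% shared its arrangement, with no overlap, of higher under shCRX in D425 and lower in HD-MB03, and 4.21% had the opposite arrangement, that of CRX. Averaged over the lines, the INHBB arm effect was 1.86 ± 0.69 (edgeR adjusted p = 0.278; 1.01 without D425 shCRX replicate 2 and 0.61 after thinning), and no member passed (0 of 6; 3 at an unadjusted p under 0.05; 0.225% of tested genes called).

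Base composition moved with the same contrasts. Across genes, the arm effect had a Spearman correlation with the G and C content of transcripts of 0.286 in D425, -0.363 in HD-MB03 and 0.41 for the difference, a description over 15581 genes that share these libraries. INHBB transcripts were 56.7% G or C, against a median of 49%. After a correction for this content the INHBB effect in D425 was 6.46 (edgeR adjusted p = 0.0106). With the same correction INHBB kept its call in the difference of arm effects and did not pass in HD-MB03. The corrected effect sizes for those comparisons are not given here.

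**Figure D1:**
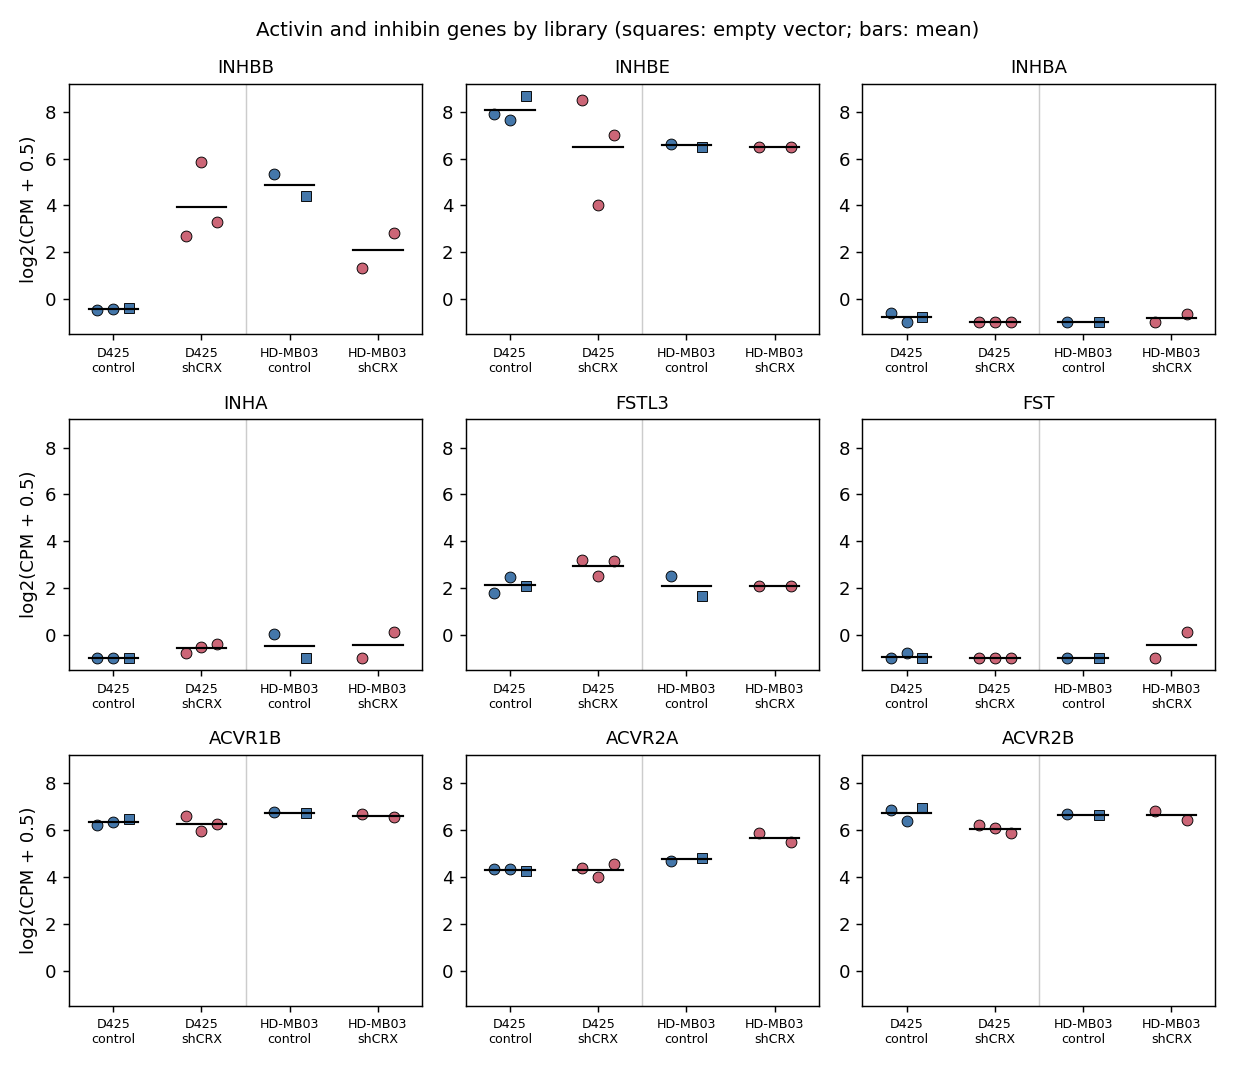
Level of each of the 9 genes in each library as log2(CPM + 0.5), with controls in blue, shCRX in red, the empty-vector library as a square and the group mean as a bar. INHBB moves between arms in opposite directions in the lines, ACVR1B stays in a narrow band, ACVR2A is highest in HD-MB03 shCRX, and INHBA, INHA and FST lie at the bottom of the scale.

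INHBE, which encodes the beta E chain best known from liver, had the highest group means per kilobase. Per kilobase of merged exons its mean level was 94.0 CPM in D425 controls, 55.7 in D425 shCRX, 31.2 in HD-MB03 controls and 29.6 in HD-MB03 shCRX libraries, against 13.8 to 18.8 CPM per kilobase for ACVR1B, the next. INHBB reached 7.56 and 9.60 CPM per kilobase in the 2 groups where it was high and 0.0769 and 1.35 in the others.

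INHBE was at 241 and 197 CPM in the D425 parental libraries and 412 CPM in the D425 vector library. It was at 360, 15.7 and 128 CPM in the D425 shCRX libraries, so that replicate 2, the library with the most INHBB, had the least INHBE. In HD-MB03 it was at 98.4 CPM in the parental, 89.5 CPM in the vector and 88.3 and 89.9 CPM in the libraries labelled shCRX. The spread in D425 shCRX was 22.9-fold from lowest to highest, against 1.55-fold for the median gene in that group, and in HD-MB03 it was 1.10-fold or less in either arm. The arms overlapped in D425 and the log2 fold change was -0.74 ± 0.70 (edgeR adjusted p = 0.649). It ranged from -0.23 to -1.99 when shCRX replicate 2 or 1 was left out.

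Between the lines the log2 difference of INHBE over both arms was 1.26 ± 0.58, D425 minus HD-MB03, which did not pass (edgeR adjusted p = 0.0991). Without D425 shCRX replicate 2 the difference was 1.57 (edgeR adjusted p = 0.00168) and it passed within the high set too (1.71, edgeR adjusted p = 0.00857). The high set does not hold that library, so leaving it out acts there mainly through the spread estimated over all groups. Whether hairpin identity moves with that library was not tested, since the labels do not give it.

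The other ligand subunits were close to absent. INHBA, the beta A chain of the best studied activin, had 3, 0 and 1 counts in D425 controls, 0 in all 3 D425 shCRX libraries, 0 in either HD-MB03 control library, and 0 and 2 in the HD-MB03 pair labelled shCRX. INHA had 0 counts in the 3 D425 controls, 1 in each D425 shCRX library, 1 in HD-MB03 parental, 0 in HD-MB03 vector, and 0 and 8 in the HD-MB03 pair labelled shCRX. Nearly all of these values were at or under 3 counts, a floor that corresponds to 1.53 CPM in the shallowest library, so no fold is given.

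Of the binding proteins, FST was as scarce as INHBA: it had 1 count in 1 D425 control, 8 counts in HD-MB03 shCRX replicate 2 and 0 in the other 8 libraries. The 8 counts each of INHA and FST came from the same library. FSTL3 was detected throughout. It was at 2.97 and 5.08 CPM in D425 parental, 3.73 CPM in D425 vector and 8.58, 5.17 and 8.44 CPM in D425 shCRX libraries. Every shCRX library thus lay above every control, the closest pair by a narrow margin. The log2 fold change was 0.92 ± 0.37 (edgeR adjusted p = 0.215), and 0.44 after correction for G and C content.

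In HD-MB03, FSTL3 was at 5.21 CPM in the parental, 2.68 CPM in the vector and 3.72 and 3.80 CPM in the shCRX libraries, and the arms overlapped. The arm effects of FSTL3 differed between the lines by 0.99 ± 0.64 (edgeR adjusted p = 0.405), by 0.41 without the HD-MB03 parental library, by 0.51 with the vector libraries alone as controls and by 0.21 after the G and C correction. Per kilobase its group means were 1.22 to 2.41 CPM.

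The receptors were expressed in every library. ACVR1B, the type I receptor, was at 75.0 and 80.5 CPM in D425 parental, 87.6 in D425 vector and 96.7, 62.7 and 76.0 CPM in D425 shCRX libraries. In HD-MB03 it was at 108 CPM in the parental, 107 CPM in the vector and 103 and 93.4 CPM in the shCRX libraries. The arms overlapped in D425 and did not in HD-MB03, where the shCRX libraries were slightly lower, and neither difference passed (edgeR adjusted p = 0.945 and 0.812). Over both arms ACVR1B was lower in D425 by a log2 difference of -0.36 ± 0.15 (edgeR adjusted p = 0.0604). That difference passed with DESeq2, with the filter at a mean of 1 CPM, with the G and C correction, with a replicate block (adjusted p 0.0385 to 0.0494) and without D425 shCRX replicate 1 (edgeR adjusted p = 0.0278), and was -0.2 after thinning.

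ACVR2A, a type II receptor shared by activins and several BMPs, was steady in D425. It was at 19.99, 19.6 and 18.5 CPM in the controls and 20.4, 15.5 and 23.3 CPM in the shCRX libraries. In HD-MB03 it was at 25.5 CPM in the parental, 27.3 CPM in the vector and 58.2 and 44.4 CPM in the shCRX libraries, with no overlap of the arms. The HD-MB03 log2 fold change was 0.96 ± 0.27 (edgeR adjusted p = 0.102), and 0.45 after correction for G and C content (edgeR adjusted p = 0.46). The arm effects differed between the lines by -0.93 ± 0.34 (edgeR adjusted p = 0.142), by -0.29 after that correction and by -0.23 after thinning.

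All 6 D425 libraries had less ACVR2A than all 4 HD-MB03 libraries, an absence of overlap by line found in 29.1% of tested genes and in 1 of the 6 tested members. The line difference, D425 minus HD-MB03, was -0.91 ± 0.17 (edgeR adjusted p = 8.10e-04). It was -1.403 ± 0.23 within the high set (edgeR adjusted p = 5.27e-04) and -0.42 ± 0.25 within the low set (edgeR adjusted p = 0.217), where it passed after the G and C correction (-0.75, edgeR adjusted p = 0.0289). These 2 comparisons set the lines beside each other in opposite arms, so line and arm differ together in each. The line call held in every fit that left out 1 library and was lost after thinning to equal depth (-0.94, edgeR adjusted p = 0.0708).

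ACVR2B, the other type II receptor, was at 115 and 84.8 CPM in D425 parental, 124 CPM in D425 vector and 74.9, 67.6 and 57.8 CPM in D425 shCRX libraries. All shCRX libraries lay under all controls. The log2 fold change was -0.69 ± 0.20 and did not pass (edgeR adjusted p = 0.0826). It passed with DESeq2 (-0.69, adjusted p = 0.0285), with no low-count filter (edgeR adjusted p = 0.0222) and without D425 parental replicate 2 (-0.87, edgeR adjusted p = 0.0426). In HD-MB03 the arms overlapped, at 104 CPM in the parental, 98.7 CPM in the vector and 113 and 86.6 CPM in the shCRX libraries, and the arm effects differed by -0.66 ± 0.31 (edgeR adjusted p = 0.243) and by -0.25 after thinning. Its merged exons add up to 15744 bases, so per kilobase it was lower than ACVR1B, 4.24 to 6.84 against 13.8 to 18.8 CPM.

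**Figure D2:**
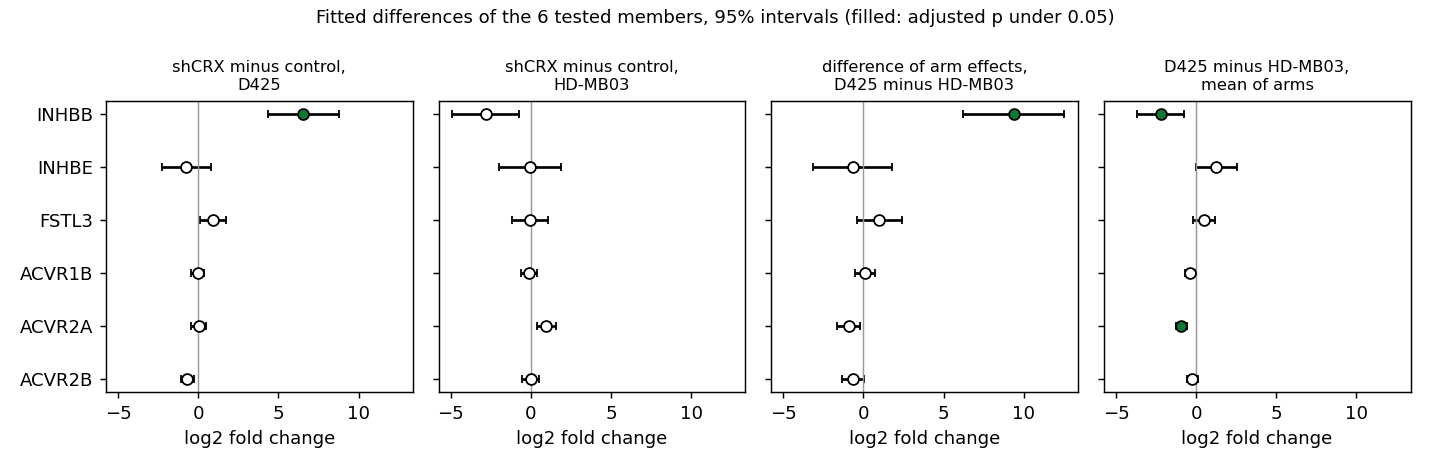
Fitted log2 fold changes of the 6 tested members with 95% intervals, in 4 comparisons, filled where the adjusted p was under 0.05. INHBB is filled in D425, in the difference of arm effects and between the lines, ACVR2A is filled between the lines alone, and the HD-MB03 panel has no filled point.

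Within a line, 3 of the 6 tested members had arms that did not overlap in D425 (INHBB and FSTL3 higher, ACVR2B lower; 23.0% of all tested genes) and 3 of 6 in HD-MB03 (INHBB and ACVR1B lower, ACVR2A higher; 52.3% of all tested genes). With 3 against 3 libraries the smallest two-sided exact permutation p is 0.1, and with 2 against 2 it is 0.333, so single members cannot pass that test. INHBB reached both limits, as any gene whose arms do not overlap must. FSTL3, ACVR2B and INHA also reached the limit in D425, and ACVR1B and ACVR2A in HD-MB03.

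Between the lines, over both arms, 2 of 6 members were called, INHBB and ACVR2A, both lower in D425, against 46.0% of all tested genes. INHBB was lower in D425 by a log2 difference of -2.22 ± 0.68 (edgeR adjusted p = 0.0192). The same 2 members were called within the high set (31.2% of tested genes), where INHBB differed by -4.08 ± 1.07 (edgeR adjusted p = 0.0132). None was called within the low set (0 of 6; 1 at an unadjusted p under 0.05; 30.7% of tested genes called by edgeR), where INHBB differed by -0.36 ± 0.81 (edgeR adjusted p = 0.767). The line call of INHBB was lost without D425 parental replicate 2, HD-MB03 parental replicate 1 or HD-MB03 shCRX replicate 2 (edgeR adjusted p 0.0541 to 0.124), and the high-set call without D425 parental replicate 2 or HD-MB03 shCRX replicate 2 (edgeR adjusted p 0.0555 and 0.157). With no low-count filter, vector controls alone or thinning INHBB passed in neither (adjusted p 0.124 to 0.568), nor with limma-voom in the high set (0.0725). Within the low set INHBB passed without D425 shCRX replicate 2 (-2.01, edgeR adjusted p = 0.0139).

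The spread of the 4 group means, on the log2 scale, was divided into shares that followed line, arm and number set, a description with no test. By design the set share is also that of arm effects that differ between the lines, so these readings cannot be told apart. INHBB had its largest share, 78.2%, with set, against 18.1% for line and 3.69% for arm. ACVR1B followed the line with 92.8% and ACVR2A with 65.1%, close to the median tested gene at 62.8% for line, 8.98% for arm and 13.3% for set. ACVR2B had its largest share, 43.0%, with arm and 35.6% with set. INHBE and FSTL3 were divided almost evenly, between 30.6% and 37.0% each. CRX had 61.2% with set and 38.8% with line.

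The genes whose levels were most like INHBB over the 10 libraries, by Pearson correlation of log2(CPM + 0.5) among 12204 protein-coding genes, were UTS2R, the urotensin II receptor (0.977), SMAD6 (0.968) and SMAD7 (0.967). In all 35 genes had a correlation above 0.9. The libraries of a group share line, arm, set and depth class, so the number of independent points is smaller than 10. Over the 6 D425 libraries alone, 448 genes were above 0.9 and the 5 most alike, at 0.989 to 0.994, included none of these 3. Absence from the 5 does not show a loss of likeness, and the D425 correlations of these 3 are not given here.

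SMAD7, which blocks activin and TGF-beta type I receptors, was at 3.58 and 2.34 CPM in D425 parental, 2.64 CPM in D425 vector and 13.6, 33.9 and 15.9 CPM in D425 shCRX libraries. In HD-MB03 it was at 17.2 CPM in the parental, 17.7 CPM in the vector and 6.08 and 12.2 CPM in the shCRX libraries. As with INHBB, D425 shCRX replicate 2 was highest in D425 and neither line showed overlap of its arms. That arrangement of arms was found in 4.07% of tested genes. SMAD7 was among the genes named for likeness to INHBB over these libraries, so the resemblance is not independent of that choice. SMAD7 rose in D425 by 2.86 ± 0.40 (edgeR adjusted p = 0.00323), was at -0.93 ± 0.48 in HD-MB03 (edgeR adjusted p = 0.345), and its arm effects differed by 3.80 ± 0.63 (edgeR adjusted p = 0.00747).

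SMAD6 was at 10.9 and 14.9 CPM in D425 parental, 11.6 CPM in D425 vector and 24.0, 85.4 and 42.5 CPM in D425 shCRX libraries, and its D425 log2 fold change was 2.01 ± 0.39 (edgeR adjusted p = 0.0188). In HD-MB03 it was at 56.7 and 39.1 CPM in the controls and 17.0 and 24.6 CPM in the shCRX libraries (log2 fold change -1.21 ± 0.48, edgeR adjusted p = 0.226). UTS2R was at 0.392, 1.21 and 0.454 CPM in D425 controls and 3.88, 14.5 and 4.60 CPM in D425 shCRX libraries. Its log2 fold change was 3.46 ± 0.67 in D425 (edgeR adjusted p = 0.0177). SMAD6 and UTS2R were named for likeness to INHBB, itself called in D425, over these same libraries. Their D425 p-values take no account of that choice. The D425 calls of SMAD6 and UTS2R were lost without D425 parental replicate 1 or the D425 vector library (adjusted p 0.0618 to 0.0819), and that of UTS2R also without D425 shCRX replicate 2 (edgeR adjusted p = 0.0502).

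**Figure D3:**
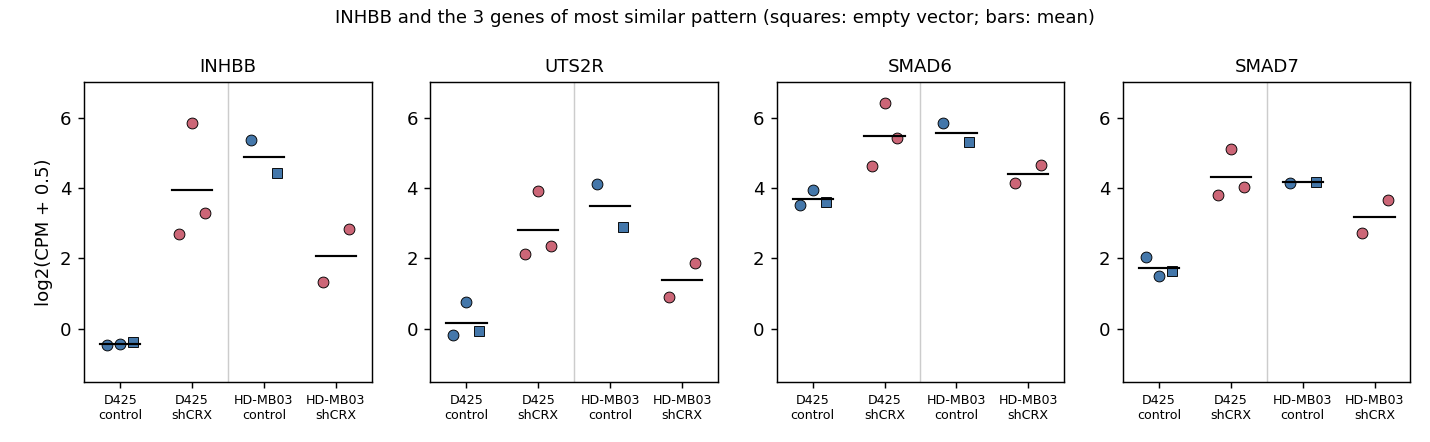
Levels of INHBB and of UTS2R, SMAD6 and SMAD7 in each library as log2(CPM + 0.5), with controls in blue, shCRX in red, vector libraries as squares and group means as bars. All 4 genes are low in D425 controls, high in D425 shCRX and HD-MB03 controls, and intermediate in HD-MB03 shCRX libraries.

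For ACVR2A the most alike genes were ZNF730 (0.972), ZNF25 (0.964) and CASD1 (0.96), with 53 genes above 0.9. The first pair encodes zinc finger proteins, and CASD1 a sialic acid acetyltransferase. CASD1 was at 13.2 to 22.3 CPM in the 6 D425 libraries, 17.2 CPM in HD-MB03 parental, 33.2 CPM in HD-MB03 vector, and 65.3 and 47.6 CPM in the HD-MB03 pair labelled shCRX.

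The remaining genes of the SMAD2/3 branch were taken from lists of ligands, receptors, antagonists, transducers, inhibitors, proteases and response genes. Of 54 listed, 41 were tested. In D425, 3 of 41 were higher and 0 lower under shCRX, with a median log2 fold change of 0.21 against 0.02 over all tested genes, of which 2.97% were called. In HD-MB03, 0 were higher and 2 lower, with a median of -0.21 against 0.10, and 1.51% of all tested genes called. In the difference of arm effects 5 were positive and 0 negative, against 4.16% of all tested genes called, and in the mean of the lines 0 passed by edgeR (7 at an unadjusted p under 0.05; 0.225% of all tested genes called).

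The 3 that rose in D425 were SMAD7, PMEPA1 and SPHK1. PMEPA1, a membrane protein that holds SMAD2 and SMAD3 away from the receptor, was at 1.904, 1.61 and 3.45 CPM in D425 controls and 5.45, 9.10 and 7.42 CPM in shCRX libraries (log2 fold change 1.65 ± 0.33, edgeR adjusted p = 0.0207). SPHK1, a sphingosine kinase, was at 5.66, 3.71 and 2.27 CPM in D425 controls and 11.8, 37.2 and 18.7 CPM in shCRX libraries (2.51 ± 0.46, edgeR adjusted p = 0.0143). The PMEPA1 call was lost without D425 parental replicate 1 or 2 or D425 shCRX replicate 2 or 3 (edgeR adjusted p 0.0555 to 0.0841), and that of SPHK1 without the D425 vector library (edgeR adjusted p = 0.0568). With the vector libraries alone as controls, or after thinning, none of SMAD7, PMEPA1, SPHK1, SMAD6 and UTS2R passed in D425 (edgeR adjusted p 0.129 to 0.702).

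The 2 that fell in HD-MB03 were TGFB1 and NEDD9. TGFB1, the TGF-beta 1 ligand, was at 154 and 85.8 CPM in HD-MB03 controls and 35.9 and 37.8 CPM in shCRX libraries (log2 fold change -1.70 ± 0.34, edgeR adjusted p = 0.0308). NEDD9, a focal adhesion scaffold, was at 14.1 and 15.0 CPM in controls and 3.07 and 3.22 CPM in shCRX libraries (log2 fold change -2.20 ± 0.48, edgeR adjusted p = 0.0422). Leaving out HD-MB03 parental replicate 1 or either HD-MB03 shCRX library ended the TGFB1 call (edgeR adjusted p 0.167 to 0.315). The NEDD9 call was lost without any 1 of the 4 HD-MB03 libraries, D425 parental replicate 1 or D425 shCRX replicate 3 (edgeR adjusted p 0.0556 to 0.265). With the vector libraries alone as controls neither TGFB1 nor NEDD9 passed (edgeR adjusted p = 0.348 and 0.148).

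No transducer passed in either line. SMAD2 averaged 98.5 to 113 CPM and SMAD4 112 to 123 CPM over the 4 groups, and the type I receptor TGFBR1 127 to 188 CPM. The Nodal co-receptor genes TDGF1 and CFC1 and the ligand genes GDF1 and GDF3 had 0 counts in all libraries. Reads shared with an overlapping gene or a near-identical copy may go uncounted, so 0 counts need not mean absence.

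**Figure D4:**
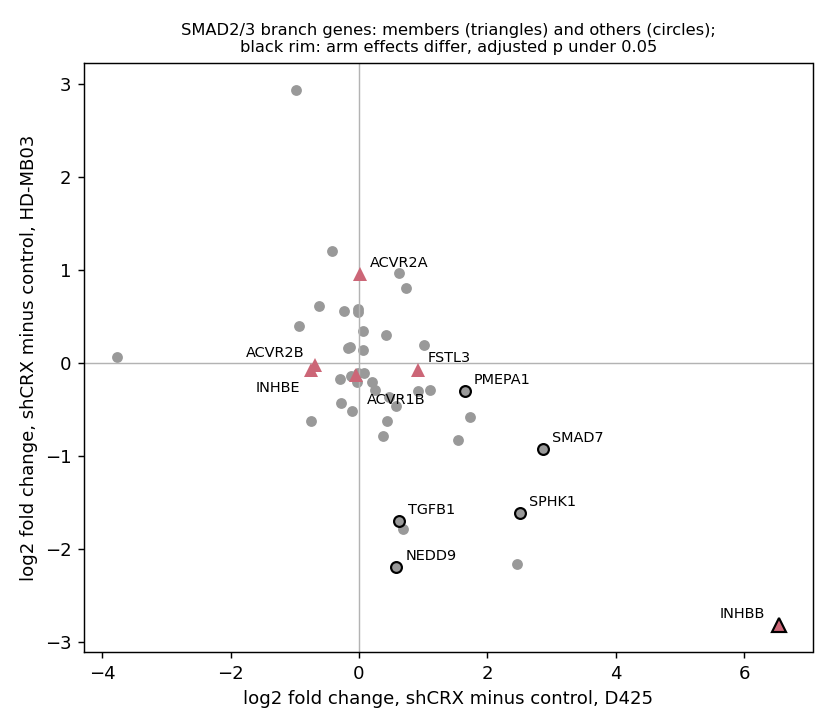
Log2 fold change between arms in D425 (horizontal) and in HD-MB03 (vertical) for the tested activin and inhibin genes (triangles) and other SMAD2/3 branch genes (circles), with a black rim where the arm effects differed at an adjusted p under 0.05. INHBB lies alone at the lower right, SMAD7, SPHK1, PMEPA1, TGFB1 and NEDD9 lie in the same quadrant, and the 3 receptors lie within 1 unit of 0 on both axes.

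Between the lines 25 of the 41 branch genes passed over both arms, 14 higher and 11 lower in D425, where 46.0% of all tested genes were called. Among those higher in D425 was the type I receptor ACVR1 (1.57 ± 0.20, edgeR adjusted p = 4.93e-05), which was listed here although it signals chiefly through BMP-type SMADs. Also higher were the co-receptor TGFBR3, which binds inhibins (1.92 ± 0.34, edgeR adjusted p = 8.12e-04), and the decoy receptor BAMBI (2.54 ± 0.60, edgeR adjusted p = 0.00489). The protease genes PCSK7 and FURIN, the SMAD anchor ZFYVE9 and the co-repressor SKIL were higher by 0.75 to 1.01. The BAMBI call was lost with no low-count filter (edgeR adjusted p = 0.0635) and reached 0.05 after thinning, FURIN was lost with parental controls alone (0.0753) and ZFYVE9 after thinning (0.142). The BAMBI difference was 3.95 without HD-MB03 shCRX replicate 2. Among those lower in D425 were SMAD3 (-1.26 ± 0.14, edgeR adjusted p = 1.56e-05), the cell cycle inhibitor CDKN1A (-3.87 ± 0.48, adjusted p = 5.89e-05) and PMEPA1 (-2.92 ± 0.25, adjusted p = 1.12e-06). TGFB2 averaged 22.5 CPM in HD-MB03 controls and 23.4 CPM in HD-MB03 shCRX libraries, with 7 counts in the 3 D425 controls and 0 in the D425 shCRX libraries.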

How the data were processed

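RNA of 10 libraries was analysed from counts of reads per gene, deposited by the authors as 1 table per library without normalisation. The submitters' processing notes name HTSeq, HISAT2, bcl2fastq and DESeq2, and build GRCh37 (hg19); versions, the role of DESeq2 and the strand setting are not given in the sources used here, so reads of overlapping or antisense genes cannot be told apart. Each table held 57820 identifiers, 52338 with a symbol, and 5 summary entries that were left out. No further per-sample columns were present (0).

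Counts were fitted in R 4.3.3 with edgeR 4.0.16: TMM scaling, filterByExpr given the 4 line-by-arm groups, a robust quasi-likelihood fit, 6 residual degrees of freedom, two-sided tests and Benjamini-Hochberg adjustment over 16006 genes (425 without a symbol), with a threshold of 0.05. The biological coefficient of variation was 26%. The standard error was derived from the fold change and its F statistic. CPM uses the effective library size, and correlations, shares and permutation tests use log2(CPM + 0.5). Depth was 1.96 to 18.06 M counted reads, and intervals and the floor of 3 counts cover counting error alone. Exon lengths and G and C content came from GENCODE v29, which is of another build than the counts, so no coordinates of the count files are given. No library pair within a group was a duplicate (chi-square over its degrees of freedom 10.0 to 58.7). The script was tested on simulated data.

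Named were all 9 members, CRX, called genes of the SMAD2/3 lists (a selection of up to 4 per list and comparison) and, for each member called in the difference or between lines, the 3 protein-coding genes of highest correlation. The result of 1 list gene is not reported here. The members and lists were chosen with earlier results of these data known. Alternatives were DESeq2 size factors, library totals, DESeq2 1.42.0, limma-voom (limma 3.58.1), 2 other filters, vector or parental controls alone, thinning, a correction for G and C content, a replicate block and leaving out each library. Fits of 1 line alone were chosen after seeing the data.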

Additional observations from a re-analysis of the deposited data

Results flagged for a closer look

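For 9 of the genes described, the effect of the shCRX label differed from D425 to HD-MB03 when the difference itself was tested. The differences of log2 fold changes, D425 minus HD-MB03, were 9.37 for INHBB (edgeR adjusted p = 0.00619), 5.85 for UTS2R (0.0101), 4.12 for SPHK1 (0.0115), 3.80 for SMAD7 (0.00747) and 3.22 for SMAD6 (0.0155). They were 2.78 for NEDD9 (0.0193), 2.32 for TGFB1 (0.0117), 1.95 for PMEPA1 (0.0447) and -2.14 for CRX (0.0199), the last the only negative value. UTS2R, SMAD6 and SMAD7 were named for their likeness to INHBB over the same libraries, so their differences are not independent of it. Each difference is also a comparison of the 2 number sets. Leaving out 1 of the HD-MB03 libraries ended the call for INHBB, CRX, UTS2R, SMAD6, SPHK1, TGFB1, NEDD9 and PMEPA1 in at least 1 case, with HD-MB03 shCRX replicate 1 ending it in all 8, while SMAD7 passed in every such fit. With the vector libraries alone as controls none of the 9 passed (edgeR adjusted p 0.082 to 0.384). Parental controls alone ended it for CRX, SMAD7, SPHK1 and SMAD6 (0.0529 to 0.0818), thinning for CRX, SMAD7, PMEPA1, NEDD9, SPHK1, SMAD6 and UTS2R (0.0882 to 0.371), limma-voom for CRX and NEDD9 (0.0729 and 0.0568), the G and C correction for PMEPA1 (0.0662) and no low-count filter for INHBB (0.0516). The PMEPA1 call was also lost without D425 parental replicate 1 or 2 or D425 shCRX replicate 2 or 3.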

How the results depend on the processing

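The limits are the depth of the HD-MB03 controls, 3 to 4 INHBB counts in D425 controls, arms of 2 or 3 libraries and the overlap of arm with number set. Over 53 single-gene values, 1131 alternative values were computed: 977 kept direction and side of the threshold, 124 lost the call, 27 gained it and 3 reversed. All 3 were INHBB within the low set, where the value was -0.36 and became 0.199 with vector libraries alone, 0.164 without D425 shCRX replicate 1 and 0.211 without the HD-MB03 parental library. Leaving out 1 library in turn gave -2.01 to 0.211 there.

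The number of the 6 members called in D425, 1, became 2 with DESeq2 (INHBB and ACVR2B) and 0 with limma-voom, vector or parental controls alone or thinning; with no low-count filter it was 1, but ACVR2B in place of INHBB. In HD-MB03, 0 became 1 with the HD-MB03 libraries alone. In the difference, 1 became 0 with no low-count filter or vector controls alone. Between lines, 2 became 1 with no low-count filter or vector controls alone, 0 after thinning, and 3, with ACVR1B, under DESeq2, the filter at a mean of 1 CPM, the G and C correction and the replicate block. In the high set, 2 became 1 with limma-voom or vector controls alone and 0 after thinning; with no low-count filter it was 2, but INHA in place of INHBB. The fit with no low-count filter took in all 9 members, INHA among them. In the high set all INHA counts, 8, came from HD-MB03 shCRX replicate 2. In the low set, 0 became 1 with DESeq2 size factors, DESeq2 or the filter at a mean of 1 CPM and 2 with the G and C correction. Leaving out 1 library gave 1 to 2 called members in D425, 0 to 1 in HD-MB03, 0 to 1 in the difference, 1 to 3 between lines, 1 to 3 in the high set and 0 to 2 in the low set. The mean of the lines stayed at 0 in every alternative.

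Over all genes, the counts were 476 in D425 (21 to 1211 over the alternatives other than leaving out a library or fitting 1 line), 241 in HD-MB03 (30 to 793), 666 in the difference (55 to 1579), 36 in the mean of the lines (1 to 405), 7365 between lines (3734 to 7737), 5001 in the high set (1935 to 5887) and 4920 in the low set (2021 to 5345). Leaving out 1 library gave 185 to 430, 15 to 329, 177 to 841, 3 to 71, 5942 to 7883, 3206 to 5538 and 2483 to 5451 in that order. Scaling to library totals moved the median gene by 0.132 in D425, 0.112 between lines and 0.204 in the low set, and the split of D425 calls from 257 higher and 219 lower to 367 and 151, between lines from 3905 and 3460 to 4514 and 2920, and in the low set from 2565 and 2355 to 3498 and 1847.

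Replicate numbers did not pair the libraries: deviations of same-numbered libraries correlated at 0.019, 0.0739 and 0.037. With a replicate block, INHBB was at 6.08 in D425 (edgeR adjusted p = 4.03e-04) and 9.17 in the difference (2.43e-04), 1 member (INHBB) was called in HD-MB03 and 1 (ACVR2B) in the low set, ACVR1B passed between lines (0.0494), and 539 genes were called in D425.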

Other observations

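INHBE levels were most like those of MARK3 (Pearson correlation of log2(CPM + 0.5) over the 10 libraries 0.975), TECPR2 (0.972) and AKAP5 (0.959), a description chosen after the values were seen.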
